A study of Danio rerio with 6 samples.

Results

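Mature microRNAs were compared between primordial germ cells at the prim-5 stage, 24 hours post fertilization (hpf), and at the 3-somite stage, 11 hpf. Germ cells of zebrafish of the AB strain had been picked by green fluorescence, and no treatment or mutation is named in the labels. The comparison used 4 of the 6 libraries of the series, 2 per stage. The other 2, at the 6 hpf shield stage, entered the estimate of the spread, the choice of names tested and some alternative scalings. All 134 mature microRNA names of the table were included, of which 129 had reads in the 4 libraries and 5 had none. The label that gives green fluorescence, the number of cells or embryos pooled and whether separate embryos gave the libraries of a stage are not stated. The p-values thus measure the spread of these libraries alone, and that spread may be technical. The labels give the tissue as gonad at both stages, and the table holds no germ cell marker against which the cell type could be checked.

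A microRNA is a short RNA that guides Argonaute proteins to messenger RNAs, mainly through its seed, bases 2 to 8 from the 5′ end, and lowers their translation and stability. Names that share a seed form a family with overlapping targets. In zebrafish the miR-430 family is transcribed in great amounts from the onset of zygotic transcription and clears maternal messenger RNAs, while in germ cells the RNA-binding protein Dead end shields some germline messages, such as those of nanos and tdrd7, from it. As the embryo ages, other microRNAs, among them let-7, take a growing place in many tissues. Because every value is a share of reads, a microRNA can take a larger share without more molecules per cell. Each result is therefore given both as a share of all microRNA reads and as a share of reads outside the miR-430 family. Fewer cells of a type and less RNA per cell cannot be told apart in such libraries.

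The mature sequences of the microRNAs on which the results turn are shown as the deposited table lists them, 5′ to 3′ with T for U, and the capitals mark the seed. They are ordered as the dominant miR-430 arms, the most abundant names outside that family, the let-7 members, the pair of miR-99 and miR-100, and names without reads at 11 hpf.
miR-430a-3p: tAAGTGCTatttgttggggtag
miR-430b-3p: aAAGTGCTatcaagttggggtag
miR-26a-5p: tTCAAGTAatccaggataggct
miR-92a-3p: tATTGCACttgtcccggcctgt
miR-92b-3p: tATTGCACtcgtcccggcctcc
let-7a: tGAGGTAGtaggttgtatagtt
let-7c-5p: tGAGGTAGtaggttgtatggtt
let-7f: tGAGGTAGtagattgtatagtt
let-7i: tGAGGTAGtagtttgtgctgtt
miR-99: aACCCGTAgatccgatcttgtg
miR-100-5p: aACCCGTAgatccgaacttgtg
miR-724: tTAAAGGGaatttgcgactgtt
miR-210-5p: aGCCACTGactaacgcacattg
miR-10c-5p: tACCCTGTagatccggatttgt

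At 11 hpf the libraries held 45309 and 48199 microRNA reads, and at 24 hpf 66864 and 78973. Outside the miR-430 family these were 8983, 7404, 17602 and 27293 reads, so the shares outside it rest on the smaller numbers. The widest 95% Wilson interval of a share reached 1.05 percentage points to either side outside miR-430 and 0.46 points over all reads. PCR copies of one molecule count as several reads, so intervals and floors cover counting error only. Between 7 and 16 names per library had at least 10 reads where the other library of its stage had 0, so a count of 0 could exceed counting error.

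Germ cells held less of their microRNA reads in miR-430 at 24 hpf than at 11 hpf. The family made up 80.2% and 84.6% of reads at 11 hpf, then 73.7% and 65.4% at 24 hpf. The stages did not overlap, and the means differed by -12.8 percentage points. With 2 libraries against 2 the exact two-sided permutation p was 0.33, the smallest this design allows. Both dominant 3p arms, the strands loaded to clear maternal messages, took part. miR-430b-3p accounted for 67.2% of the family's difference and stood at 27.8% and 27.3% of reads at 11 hpf against 20.8% and 17% at 24 hpf. miR-430a-3p accounted for 33.4% of it, with 49.4% and 53.6% against 49.2% and 45.2%, so that its stages lay only just apart. The small 5p arms as a group overlapped, with 2.38% and 2.98% of reads against 2.79% and 2.72%. Neither 3p arm passed the test described below. miR-430b-3p gave a log2 difference of -0.54 (SE 0.12, edgeR adjusted p = 0.0785) and miR-430a-3p of -0.13 (SE 0.07, edgeR adjusted p = 0.505).

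Set against the library totals that the authors' deposited RPM values imply, the same family showed no separation between stages. It made up 0.254% and 0.452% of those totals at 11 hpf and 0.421% and 0.243% at 24 hpf, which overlap. microRNAs outside the family made up 0.0629% and 0.0821% at 11 hpf and 0.15% and 0.129% at 24 hpf, a 1.92-fold higher mean without overlap (exact two-sided permutation p = 0.33). What else those totals count is not known.

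**Figure D1:**
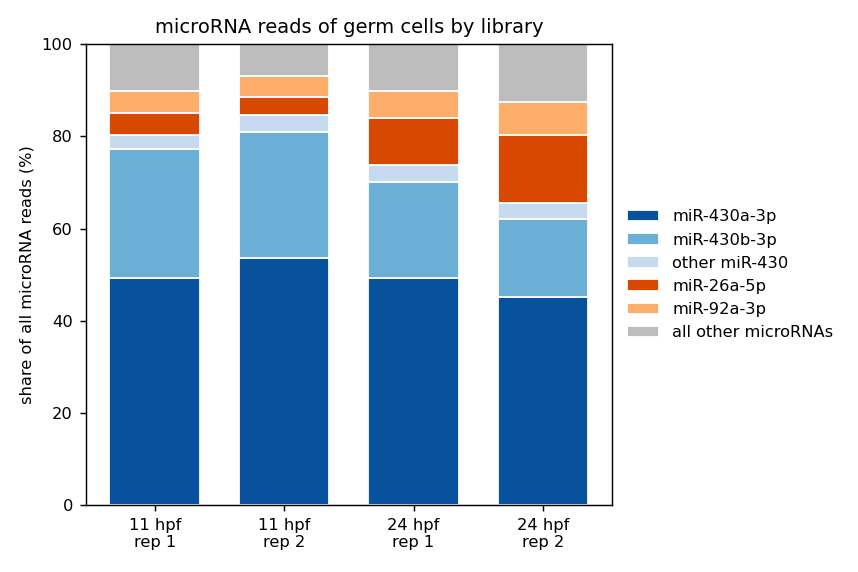
Stacked bars give the percentage of all microRNA reads in each of the 4 libraries, with miR-430 in blues, miR-26a-5p and miR-92a-3p in oranges and all other microRNAs in grey. The miR-430 part is 80.2% and 84.6% at 11 hpf against 73.7% and 65.4% at 24 hpf, and miR-26a-5p is the block that widens most.

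A single name made up most of the growth outside miR-430. miR-26a-5p, a broadly expressed vertebrate microRNA that in mammals targets the histone methyltransferase Ezh2, held 4.78% and 3.83% of all reads at 11 hpf and 10.2% and 14.9% at 24 hpf. The mean difference of 8.28 points equalled 64.5% of the growth of the share outside miR-430. Next came miR-92a-3p, a product of the miR-17-92 cluster that promotes growth and proliferation in vertebrates, with 1.64 points or 12.7% of the growth. miR-100-5p, miR-21, miR-92b-3p and let-7g added 0.54, 0.53, 0.43 and 0.31 points. The points of let-7g rest in part on 0 reads in 11 hpf replicate 1. Of the 127 names outside the family, 77 had a higher mean share of all reads at 24 hpf, by 14.6 points together, and 45 a lower one, by -1.77 points together. Without miR-26a-5p the share outside miR-430 was 15% and 11.5% of all reads at 11 hpf and 16.1% and 19.6% at 24 hpf, which still did not overlap.

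Within the reads outside miR-430 the leading pair stood in opposite order at 11 and 24 hpf. miR-92a-3p held 24.5% and 30.3% of those reads at 11 hpf and 22.1% and 20.2% at 24 hpf, while miR-26a-5p held 24.1% and 24.9%, then 38.9% and 43.2%. The ratio of miR-26a-5p to miR-92a-3p reads, which needs no denominator, was 0.986 and 0.821 at 11 hpf and 1.76 and 2.14 at 24 hpf. At 11 hpf the names that followed were let-7f, let-7c-5p, let-7a, miR-25-3p, miR-143, miR-100-5p, miR-99 and let-7i, at mean shares from 4.86% down to 2.19%. At 24 hpf they were miR-100-5p and let-7a, then miR-21, miR-92b-3p, miR-25-3p, let-7f, let-7g and let-7c-5p, from 3.29% down to 1.38%. Thus miR-143, miR-99 and let-7i left the 10 most abundant names, and miR-21, miR-92b-3p and let-7g entered. let-7g had 0 reads in 11 hpf replicate 1, so its mean there rests on the other library, and its stages overlapped on this scale (log2 difference 0.81, SE 2.28). Neighbours in either order often lay within their spread, for example miR-25-3p at 2.83% ± 1.47 (SD, n = 2) and miR-143 at 2.80% ± 0.85 (SD, n = 2) at 11 hpf. The 10 most abundant names together held 76.8% and 78.7% of these reads at 11 hpf and 77.9% and 81.0% at 24 hpf, which overlap.

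**Figure D2:**
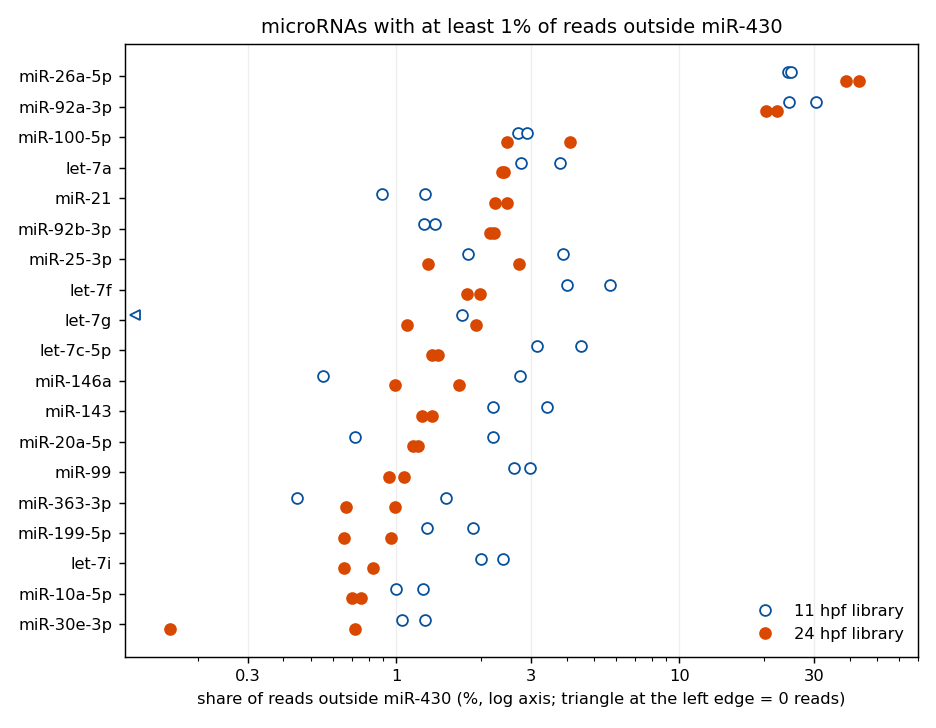
Each point is a library's share of reads outside miR-430, on a log axis in percent, for the 19 microRNAs that reach 1% of them in at least 1 of the 4 libraries; a triangle at the left edge stands for 0 reads. miR-26a-5p lies at 24.1% and 24.9% at 11 hpf and at 38.9% and 43.2% at 24 hpf, while the let-7 members other than let-7g lie lower at 24 hpf.

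The 2 denominators gave different counts of changed microRNAs. edgeR's quasi-likelihood test was run on counts scaled by the reads of each denominator, with adjustment over all names tested. As shares of all microRNA reads, 0 of 69 tested names passed an adjusted p of 0.05 (0.0%), and 13 stood under 0.05 before adjustment (18.8%). As shares of reads outside miR-430, 7 of 63 passed (11.1%), 3 higher at 24 hpf (4.76%) and 4 lower (6.35%), and 19 had an unadjusted p under 0.05 (30.2%). DESeq2, which uses its own scaling and neither denominator, called 3 of the 69 names, all higher, and 11 of the 63, 5 higher and 6 lower. Its higher calls included miR-724 in both and miR-10c-5p among the 63, which without reads at 11 hpf could only be called higher. The mean share outside miR-430 was 1.73-fold larger at 24 hpf, and the fitted log2 differences of the 63 names stood lower on the second scale by a median of 0.76 (range 0.0 to 1.11). Of those 63 names 8 had no reads at 11 hpf and 4 none at 24 hpf, so that they entered the test through the stages with reads. miR-724 and miR-210-5p, among the 3 called higher, had none at 11 hpf. Libraries of the stages did not overlap for 24 names higher (34.8%) and 5 lower (7.25%) on the first scale, and for 12 higher (19.0%) and 21 lower (33.3%) on the second. On both scales 12 of the 63 names were higher without overlap and 3 lower, namely let-7i, miR-99 and the muscle microRNA miR-1. Separation of 2 libraries from 2, in either direction, has an exact two-sided permutation p of 0.33. Lack of overlap alone is therefore weak evidence for any single name. For miR-92a-3p and miR-30e-5p the order turned round between scales.

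The 7 calls depended on single libraries and on the scaling. Leaving out 6 hpf replicate 1, 6 hpf replicate 2, 11 hpf replicate 1, 24 hpf replicate 1 or 24 hpf replicate 2 gave 0 calls each, and leaving out 11 hpf replicate 2 gave 9. Only the 4 libraries of both stages gave 0, TMM scaling 0, RLE scaling 9 (5 higher, 4 lower) and the authors' library totals 3, all higher. With the miR-430 names in the fit, RLE scaling gave 8 (4 higher, 4 lower) and the authors' totals 3, again all higher. The higher calls included names without reads at 11 hpf, which could only be called higher. These were miR-724 and miR-210-5p in both RLE fits, miR-182-5p in the RLE fit outside miR-430, and miR-724 in both fits with the authors' totals.

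**Figure D3:**
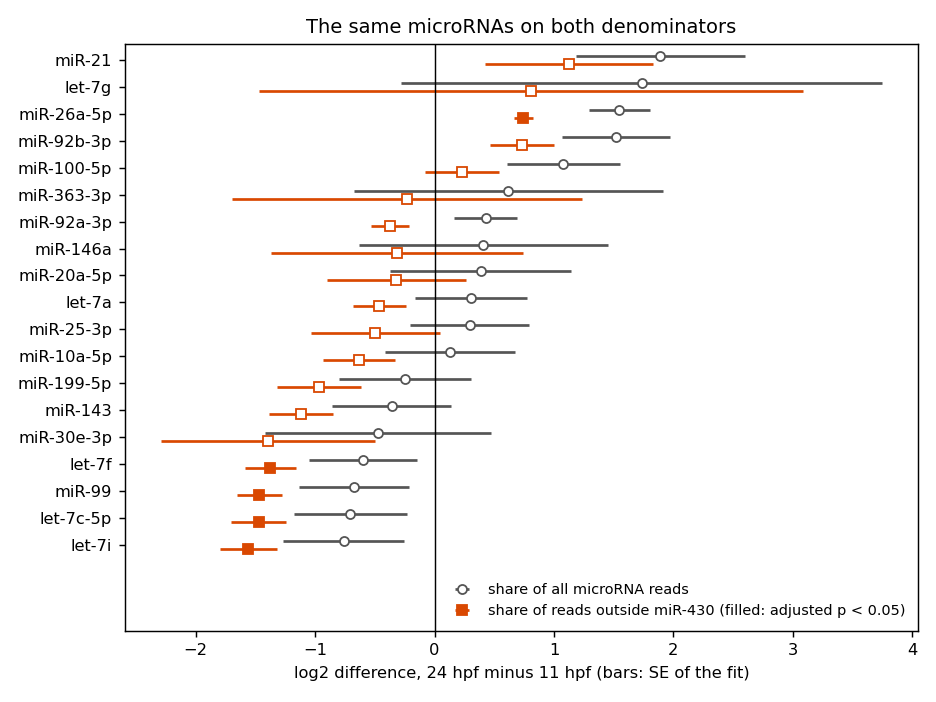
Points give the log2 difference, 24 hpf minus 11 hpf, for the same 19 microRNAs as shares of all microRNA reads (circles) and of reads outside miR-430 (squares, filled where the adjusted p is under 0.05), with bars for the standard error of the fit. Every square lies left of its circle, and miR-26a-5p, let-7f, miR-99, let-7c-5p and let-7i are filled.

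miR-26a-5p rose as a share of reads outside miR-430, with a log2 difference of 0.74 (SE 0.08, edgeR adjusted p = 0.0246), and 12 of 19 alternative settings also called it, with adjusted p from 2.1e-10 to 0.108. As a share of all reads its difference was 1.55 (SE 0.25, edgeR adjusted p = 0.0785), which did not pass. The direction was the same in all 19 settings outside miR-430 and in all 18 by all reads. miR-724 also rose outside miR-430, with 0 reads in both 11 hpf libraries and 46 and 51 at 24 hpf. That was at least 11.8-fold higher outside miR-430 and at least 20.7-fold higher over all reads, against a floor of 3 reads over the stage (edgeR adjusted p = 0.0288 and 0.0785). The 6 hpf libraries held 14 and 13 reads of it, so the 0 at 11 hpf lay between stages with reads. miR-210-5p, the other arm of a microRNA known for its induction by low oxygen, rose from 0 and 0 reads to 26 and 42, at least 8.27-fold higher outside miR-430 and at least 14.5-fold over all reads (edgeR adjusted p = 0.0390 and 0.0785). The calls on miR-724 and miR-210-5p held in 8 and 4 of 19 alternative settings, with adjusted p up to 0.224 and 0.575. Without a filter on low counts neither was called. With 0 reads at 11 hpf, both names entered the test through other stages and could only be called higher. Their calls therefore add no support to the read counts.

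The 4 that fell outside miR-430 were 3 let-7 members and miR-99. let-7 promotes differentiation in many animals and its processing is blocked by Lin28 in stem and germ cells. let-7i held 2.38% and 2.0% of reads outside miR-430 at 11 hpf and 0.653% and 0.832% at 24 hpf, and its log2 share fell by 1.56 (SE 0.24, edgeR adjusted p = 0.0270). let-7c-5p went from 4.50% and 3.13% to 1.34% and 1.41% and fell by 1.47 (SE 0.23, edgeR adjusted p = 0.0270). let-7f went from 5.70% and 4.02% to 1.77% and 1.98% and fell by 1.37 (SE 0.22, edgeR adjusted p = 0.0270). In each of these names both 24 hpf libraries lay below both 11 hpf libraries. miR-99, in mammals a regulator of mTOR signalling together with miR-100, went from 2.96% and 2.61% to 0.943% and 1.07% and fell by 1.47 (SE 0.19, edgeR adjusted p = 0.0270). Each of the 4 was called in 10 of 20 alternative settings and kept its direction in all 20, with adjusted p up to 0.224.

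Over all microRNA reads the same 4 names differed less, and none passed. let-7i held 0.472% and 0.307% at 11 hpf against 0.172% and 0.287% at 24 hpf, and miR-99 held 0.587% and 0.400% against 0.248% and 0.370%, in both cases without overlap. let-7f, with 1.13% and 0.618% against 0.467% and 0.684%, overlapped, as did let-7c-5p with 0.892% and 0.481% against 0.353% and 0.488%. A share of reads outside miR-430 also shrinks when miR-26a-5p grows. With miR-26a-5p left out of that denominator too, a setting chosen after seeing the data, the log2 differences were -1.19 for let-7i, -1.11 for let-7c-5p, -1.01 for let-7f and -1.10 for miR-99, and no name passed (lowest edgeR adjusted p = 0.0611).

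The scaling shifted the whole distribution. Over the 63 names outside miR-430 the median log2 difference was -0.32 by reads outside the family, 0.17 with TMM and 0.22 with RLE scaling, and 0.55 by the authors' totals, and over the 69 names by all reads it was 0.30. Each scaling sets 1 factor per library and so shifts names with many reads nearly alike. Distances to the median were thus nearly fixed in advance, and their likeness between scalings adds no support. Relative to the median, miR-26a-5p stood at 1.06 by reads outside the family, at 1.13 to 1.14 with the other scalings of those 63 names, and at 1.24 by all reads. let-7i stood at -1.24, at -1.14 to -1.16 and at -1.06 in the same order. let-7c-5p stood at -1.15, at -1.04 to -1.05 and at -1.01. let-7f stood at -1.05, at about -0.95 and at -0.91, and miR-99 at -1.15, at -1.06 to -1.07 and at -0.98. miR-430b-3p, by all reads, stood at -0.85 and in the other scalings at -0.78 to -0.87. miR-430a-3p stood at -0.43 there, and its own difference changed sign to 0.02 with the authors' totals.

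Reads were also summed over names with the same seed, which depends less on how near-identical names were told apart. By all microRNA reads 1 of 47 tested families passed (2.13%), and 9 stood under 0.05 before adjustment (19.1%). It was the miR-26 seed TCAAGTA, which rose by 1.55 (SE 0.26, edgeR adjusted p = 0.0424), from 4.79% and 3.83% of reads to 10.4% and 14.9%. Outside miR-430, 4 of 44 passed (9.09%), 3 higher (6.82%) and 1 lower (2.27%), and 10 stood under 0.05 before adjustment (22.7%). The miR-26 seed rose there by 0.75 (SE 0.08, edgeR adjusted p = 0.0168). The seeds of miR-724 and miR-210-5p, each held by that name alone, rose as well (edgeR adjusted p = 0.0419 and 0.0426), but without reads at 11 hpf they could only be called higher. The let-7 seed GAGGTAG fell by 0.93 (SE 0.13, edgeR adjusted p = 0.0307), from 17.2% and 14.2% of reads outside miR-430 to 8.49% and 8.0%. By all reads the let-7 names together held 3.41% and 2.18% against 2.23% and 2.76%, which overlap, and with the authors' totals the let-7 seed stood at 0.04. The miR-430 3p seed AAGTGCT, at 77.8% and 81.7% of all reads against 70.9% and 62.7%, differed by -0.26 (SE 0.08, edgeR adjusted p = 0.161) and did not pass. The calls depended on single libraries: outside miR-430 no family passed without 6 hpf replicate 1, 6 hpf replicate 2, 11 hpf replicate 1, 24 hpf replicate 1 or 24 hpf replicate 2, and 4 passed without 11 hpf replicate 2. By all reads none passed without 6 hpf replicate 1, 6 hpf replicate 2 or either 24 hpf replicate. Without 11 hpf replicate 2 the miR-26 seed no longer passed and 1 other family, GGTTGGG, was called lower. Without 11 hpf replicate 1, 2 families passed and the miR-26 seed was one of them, its only call by all reads among the 6 fits with a library left out.

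Shares within a seed family need no choice of denominator, and the make-up of several families differed between stages. Members with fewer than 100 reads over the 4 libraries, among them let-7d-5p and miR-10d-5p, were left out of these family sums, here and below. Positions of base differences are counted from 1 at the 5′ end, and the first-named microRNA's base comes first. miR-100-5p and miR-99 differ by A16T alone, and miR-100-5p made up 47.6% and 52.7% of their joint reads at 11 hpf and 72.2% and 79.4% at 24 hpf. The ratio of miR-100-5p to miR-99 reads was accordingly 0.910 and 1.11, then 2.60 and 3.85. Among let-7 members, let-7a made up 22.0% and 19.5% of family reads at 11 hpf and 28.4% and 29.96% at 24 hpf. let-7f, which differs from let-7a by G12A, made up 33.1% and 28.3% against 21.3% and 24.7%, and let-7c-5p (A19G) 26.1% and 22.1% against 16.1% and 17.6%. let-7a reads were 0.664 and 0.688 times those of let-7f at 11 hpf and 1.33 and 1.21 times at 24 hpf. let-7g, which differs from let-7a by G12T, had 0 and 127 reads, then 336 and 297, so its share at 11 hpf rests on 1 library. None of the 8 ratios and 22 family shares computed could pass an exact two-sided permutation test, whose smallest p here is 0.33. Where names differ by a single base, the division of reads between them by the authors' counting is uncertain.

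Within miR-430 the balance of the dominant arms also differed. miR-430a-3p made up 63.5% and 65.6% of reads with the family's 3p seed at 11 hpf against 69.4% and 72.0% at 24 hpf, and miR-430b-3p 35.7% and 33.4% against 29.4% and 27.1%. The 5p arms made up 2.97% and 3.52% of miR-430 reads at 11 hpf and 3.79% and 4.15% at 24 hpf, again without overlap. In the miR-92 seed family, miR-92b-3p made up 4.88% and 3.40% of reads at 11 hpf and 7.67% and 9.11% at 24 hpf, while miR-92a-3p, at 87.2% and 82.1% against 79.0% and 82.8%, overlapped. miR-92b-3p differs from miR-92a-3p at 3 positions (T10C, G21C and T22C). In the miR-10 family, whose genes lie in Hox clusters, miR-10a-5p made up 67.5% and 64.3% at 11 hpf against 40.2% and 37.8% at 24 hpf, and miR-10c-5p (A16G against miR-10a-5p) went from 0 to 32.6% and 15.7%.

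**Figure D4:**
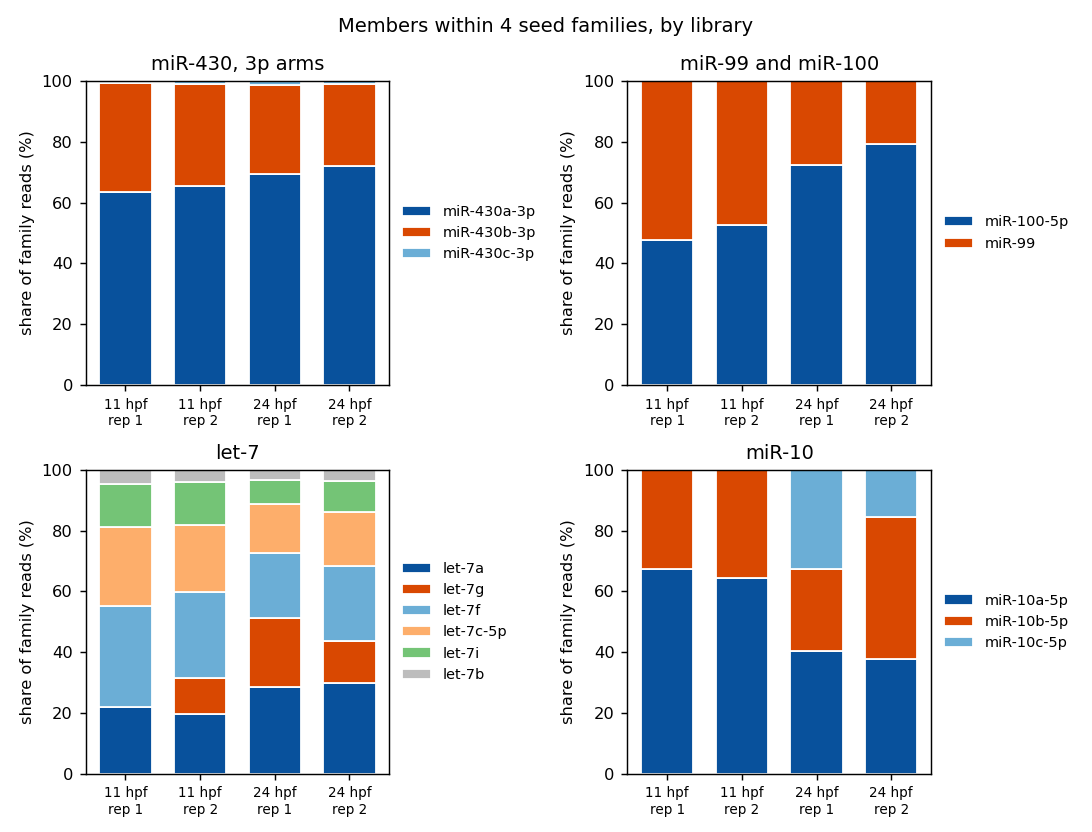
Stacked bars give each member's percentage of its own seed family's reads in each of the 4 libraries, for the miR-430 3p arms, the pair of miR-99 and miR-100, let-7 and miR-10. Members with fewer than 100 reads over the 4 libraries are left out of the family sums. miR-100-5p widens from 47.6% and 52.7% to 72.2% and 79.4%, and miR-10c-5p appears only in the 24 hpf libraries.

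Some of these names are neighbours in the genome. In RefSeq's annotation of the assembly GRCz12tu, which is not the build of the files and was read for neighbours within 10000 bases alone, let-7c lies beside miR-99 in 2 places. In 2 others let-7a lies beside miR-100 and miR-125b. The first pair, let-7c-5p and miR-99, fell outside miR-430 by the same 1.47 on the log2 scale. Of the second group, let-7a differed by -0.46, miR-100-5p by 0.23 (SE 0.31) and miR-125b-5p, with 34 and 36 reads against 121 and 113, by 0.35 (SE 0.51), none of which passed. Other let-7a genes lie beside let-7f, which differed by -1.37 (SE 0.22), and beside let-7b, at -1.29 (SE 0.40). As several let-7a genes thus stand elsewhere with other partners, its reads cannot be assigned to 1 place. By all reads let-7c-5p and miR-99 differed by -0.71 and -0.68. On that scale let-7a differed by 0.30, miR-100-5p by 1.08, miR-125b-5p by 1.11, let-7f by -0.60 and let-7b by -0.53, and none passed. The sign of let-7a beside its neighbours thus depended on the denominator.

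A set of names had no reads at 11 hpf and reads in both 24 hpf libraries. Of 129 names with reads, 85 had them at both stages, 30 at 24 hpf alone and 14 at 11 hpf alone. The 24 hpf libraries were deeper, with 17602 and 27293 reads outside miR-430 against 8983 and 7404 at 11 hpf. Neither these counts of names nor those that follow here were set to equal depth. Among the 30, 11 had reads in both 24 hpf libraries, 6 of them at least 10 in each, while none of the 14 had reads in both 11 hpf libraries. The 6 were miR-724, miR-210-5p, miR-10c-5p, miR-182-5p, miR-16c-5p and miR-456. miR-10c-5p had 107 and 79 reads, at least 22.6-fold higher outside miR-430 and 39.8-fold over all reads. miR-182-5p, of a cluster with miR-183 and miR-96 that marks sensory organs, had 49 and 82 reads, at least 15.9-fold and 28.0-fold higher. miR-16c-5p, of a family that restrains the cell cycle in mammals, had 48 and 41 reads, at least 10.8-fold and 19-fold higher. miR-456 had 12 and 87 reads, at least 12-fold and 21.2-fold higher. These last 4 did not pass outside miR-430, with edgeR adjusted p-values of 0.0732, 0.0511, 0.0646 and 0.148. By all reads they did not pass either (edgeR adjusted p = 0.0785 for miR-10c-5p, miR-182-5p and miR-16c-5p and 0.162 for miR-456).

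miR-140-3p and miR-206-3p were close to absent at 11 hpf. miR-140-3p, a cartilage microRNA, had 4 and 5 reads, then 96 and 134. Its log2 difference was 3.19 outside miR-430 (SE 0.83, edgeR adjusted p = 0.0784) and 4.0 over all reads (SE 1.01, edgeR adjusted p = 0.0785). miR-206-3p, a skeletal muscle microRNA, had 1 and 0 reads and then 51 and 50, a ratio of 36.9 outside miR-430 (95% counting interval 6.47 to 1470) and of 64.8 over all reads (11.4 to 2583). It did not pass on either scale (edgeR adjusted p = 0.0824 and 0.102).

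**Figure D5:**
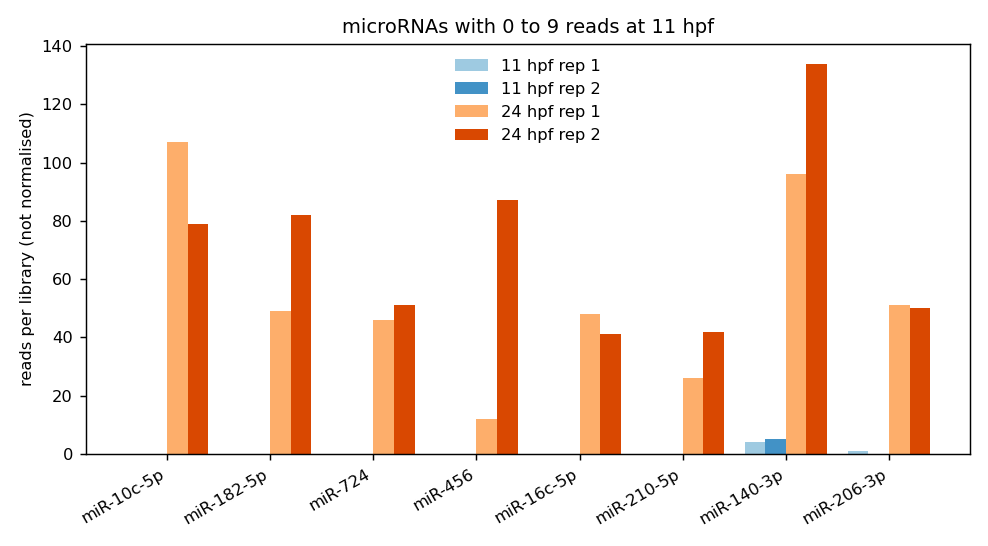
Bars give reads per library, not normalised, for the 6 microRNAs with 0 reads at 11 hpf and at least 10 in each 24 hpf library, and for miR-140-3p and miR-206-3p. The 11 hpf bars are at 0 to 5 reads, and the 24 hpf bars run from 12 to 134.

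Among abundant names that did not pass, miR-21 and miR-92b-3p lay higher at 24 hpf on both scales. miR-21, a broadly expressed microRNA, held 1.27% and 0.891% of reads outside miR-430 at 11 hpf and 2.24% and 2.47% at 24 hpf (log2 difference 1.12, SE 0.70, edgeR adjusted p = 0.371). By all reads its difference was 1.89 (SE 0.70, edgeR adjusted p = 0.226). miR-92b-3p held 1.37% and 1.26% of reads outside miR-430 against 2.14% and 2.22% (0.73, SE 0.26, edgeR adjusted p = 0.148), and 0.271% and 0.193% of all reads against 0.564% and 0.767%. It passed in 3 of 20 alternative settings outside miR-430. miR-92a-3p did change its order with the denominator: it was higher by all reads, at 4.85% and 4.66% against 5.81% and 6.97% (0.43, SE 0.27), and lower outside miR-430 (-0.38, SE 0.16), neither passing. miR-143, a smooth muscle microRNA, held 3.41% and 2.20% outside miR-430 against 1.24% and 1.34% (-1.12, SE 0.27, edgeR adjusted p = 0.0692). By all reads its stages overlapped (-0.36, SE 0.50, edgeR adjusted p = 0.857). The lowest p-values among names lower by all reads, after miR-430b-3p, included miR-15b-3p and miR-92a-5p. miR-15b-3p had 0 and 63 reads and then 0 and 0, and miR-92a-5p 28 and 1 and then 1 and 3, so each rested on 1 library of 11 hpf.

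Described as lists, the families did not always follow their called members. Over all names tested, 7 of 63 passed outside miR-430 (11.1%) and 0 of 69 by all reads, so by all reads no list could have a member past the threshold. Of 6 tested let-7 members 3 passed as lower outside miR-430 and none passed by all reads. Their median log2 differences were -1.33 and -0.57, beside -0.32 and 0.30 over all names tested. The miR-17-92 cluster and its paralogues, 8 tested, had no member past the threshold on either scale. They held 31.0% and 37.9% of reads outside miR-430 at 11 hpf and 30.04% and 25.7% at 24 hpf, lower without overlap, with a median of -0.35. By all reads the order was the opposite, 6.14% and 5.83% against 7.91% and 8.87%, with a median of 0.34. In the list of miR-99, miR-100 and miR-125, 1 of 4 fell outside miR-430 and the median was 0.29. In the miR-26 list 1 of 2 tested rose outside miR-430, and the list's median was -2.93. The other, miR-26a-3p, stood at -6.60, with 15 reads in 11 hpf replicate 2 and 0 in the rest of the 4 libraries. In the miR-430 list none of 6 tested passed by all reads, where its median was 0.01. Of the broadly expressed list, 1 of 7 tested rose outside miR-430, with a list median of 0.52. It was miR-210-5p, which without reads at 11 hpf could only be called higher. The Hox-cluster (3 tested), miR-15/16 (4), miR-30 (4), miR-181 (3) and miR-146 (2) lists had no member past the threshold on either scale. In the miR-30 and miR-181 lists all tested members lay below 0 outside miR-430, with medians of -0.60 and -0.50, where 38 of all 63 names did. By all reads 3 of 4 miR-30 and 2 of 3 miR-181 members lay above 0, with medians of 0.16 and 0.27, beside 42 of all 69 names.

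microRNAs typical of other cell types were read in the same libraries. Those of sensory organs and those of muscle, each in sum, lay higher at 24 hpf on both scales without overlap. The sensory organ names miR-183-5p, miR-96-5p and miR-182-5p together had 43 and 7 reads, then 175 and 323, or 0.479% and 0.0945% against 0.994% and 1.18% of reads outside miR-430. miR-183-5p had 40 and 3 reads against 100 and 240, and miR-96-5p 3 and 4 against 26 and 1. The muscle names had 21 and 17 reads against 59 and 99 in sum, or 0.234% and 0.230% against 0.335% and 0.363% of reads outside miR-430. They did not move together, as miR-1 had 20 and 17 against 8 and 27, a lower share on both scales without overlap. miR-206-3p held most of the 24 hpf reads, and miR-499-5p had 22 reads in 24 hpf replicate 2 and 0 elsewhere. Neural names had 5 and 22 reads against 82 and 45. In sum they were a higher share of all reads without overlap, while the stages overlapped outside miR-430. miR-124-3p among them had 32 reads in 24 hpf replicate 1 and 0 elsewhere. miR-128-3-5p, the only neural name tested, went the other way. It held 0% and 0.216% of reads outside miR-430 at 11 hpf and had 0 reads at 24 hpf. Its difference thus rested on 1 library of 11 hpf. Epithelial names had 12 and 8 reads against 19 and 18. Outside miR-430 that was 0.134% and 0.1080% against 0.1079% and 0.0660%, lower with the stages only just apart. By all reads the epithelial sums overlapped. Endothelial names had 40 and 7 reads against 15 and 60, and their shares overlapped on both scales. Endocrine names, miR-7a and miR-375, had 47 and 18 reads against 35 and 97, and their summed shares overlapped on both scales. miR-375 had 50 reads in 24 hpf replicate 2 and 1 or 0 elsewhere. miR-7a lay lower outside miR-430 without overlap, at 0.512% and 0.243% against 0.199% and 0.172%, and overlapped by all reads. The liver microRNA miR-122 was at 0 in all 4 libraries. Mesenchymal names, which include miR-140-3p and miR-143, held 5.80% and 3.90% of reads outside miR-430 at 11 hpf and 2.97% and 2.88% at 24 hpf, but 1.15% and 0.600% of all reads against 0.781% and 0.994%, which overlap. No member of these lists passed the test on either scale, beside 7 of all 63 names outside miR-430 (11.1%) and 0 of 69 by all reads. The deposited table held 0 names of the blood, erythroid and gonad lists, which were therefore not analysed here. Whether other cells among those picked had a part in any of the results was not tested.

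More microRNAs were detected at 24 hpf, and at equal depth the overlap of the stages depended on the measure. Outside miR-430, 74 and 76 names had reads at 11 hpf and 94 and 88 at 24 hpf. At an equal depth of 7404 reads outside miR-430 the expected numbers were 71.2 and 76.0 against 89.0 and 71.8, which overlap (exact two-sided permutation p = 0.667). Counting only names with at least 3 reads at that depth, they were 51.9 and 58.0 against 80.1 and 58.9, which do not overlap. At an equal depth of 45309 microRNA reads they were 74 and 75.3 against 91.8 and 80.3, again without overlap, and 0.33 is the smallest p possible for both. In each measure 24 hpf replicate 1 stood highest. Without it the first of the 3 numbers was lower at 24 hpf by 1.81 names, while in the other two 24 hpf replicate 2 still lay above both 11 hpf libraries. 24 hpf replicate 1 alone also held 14 of the 30 names seen at 24 hpf but not at 11 hpf, against 5 for 24 hpf replicate 2.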

How the data were processed

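Small RNA libraries were made from picked germ cells by a microscale method, per the labels' protocols. The submitters' processing notes name Bowtie 1.0.0-5 and the build danRer11. No rule for reads matching several microRNAs was found there. The deposited table gives whole-number read counts, not normalised, and RPM values deposited by the authors, which equal the count times 1 constant per library and imply totals of 9019179 to 21230244 reads over the 6 libraries. There were 0 columns of other series.

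The main test was edgeR's quasi-likelihood test (edgeR 4.0.16, R 4.3.3) with stage as the only term and all 6 libraries in the fit. Library size was the sum of all microRNA reads or of reads outside miR-430, with no further scaling factors. Over all 6 libraries, filterByExpr with a minimum count of 10 kept 69 of 134 names, 63 of them outside miR-430. The p-values were adjusted by Benjamini-Hochberg over all names tested. Standard errors of log2 differences were computed as the size over the root of F. Equal-depth detection was computed as the hypergeometric expectation. A fold against 0 reads was computed against 3 reads over the stage. Scripts were tested on simulated data. Exact permutation tests of shares used SciPy 1.17.1, and figures matplotlib 3.10.9. Wilson intervals are at 95%.

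The members, lists and tests were chosen with earlier results of these data known. Named were microRNAs with at least 1% of reads outside miR-430 in a library, miR-430 members, those past the threshold or of lowest p on each scale, those with 0 reads at one stage and at least 10 in each library of the other, and up to 4 members per list. miR-96-5p, miR-122, miR-124-3p, miR-375 and miR-499-5p were named outside that rule, after their values were seen. Alternatives covered TMM and RLE scaling, the authors' totals, DESeq2 1.42.0, other filters and fits, the replicate number as a term and each library left out. Of 106 hairpins of the table, 100 matched a RefSeq gene of GRCz12tu by name. No coordinates are given, as no annotation of danRer11 was used.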

Additional observations from a re-analysis of the deposited data

How the results depend on the processing

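Of 542 values under alternatives for the microRNAs and seed families past the threshold or of lowest p, 378 kept their direction and side of the threshold, 130 lost the threshold, 32 gained it and 2 changed sign. Those were miR-92a-5p by all reads, at -4.41 to 0.35 with a library left out, and the let-7 seed outside miR-430, at 0.0355 with the authors' totals. The tally includes names and families without reads at 11 hpf or at 24 hpf, such as miR-724, miR-210-5p, miR-182-5p and their seeds. Their values could not turn to the opposite sign, so a kept direction adds no support for them. Among the other abundant and miR-430 names, none of which passed, 14 of 23 by all reads and 10 of 13 outside miR-430 changed sign in at least 1 alternative, for example let-7a outside miR-430 (-0.67 to 0.51), miR-92a-3p there (-0.52 to 0.55) and miR-430a-3p by all reads (-0.56 to 0.02). The cause was not tested.

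By all reads the 0 names called became 8 with RLE, 3 with the authors' totals, 3 with DESeq2, 2 with a mean of 100 reads in a stage, 3 with the newer quasi-likelihood form and 10 where only names with reads in both libraries of a stage were kept. Outside miR-430 the 7 became 0 with TMM, 3 with the authors' totals, 11 with DESeq2, 0 with the 4 libraries alone, 13 with that filter, 0 without miR-26a-5p in the denominator and 0 to 9 with a library left out. The 1 seed family by all reads became 0 with TMM, the authors' totals, the 4 libraries alone or no miR-26a-5p, 3 with DESeq2, 9 with that filter, 2 with the newer form and 0 to 2 with a library left out. Outside miR-430 the 4 became 0 with TMM, the 4 libraries alone or no miR-26a-5p, 1 with RLE or no filter, 2 with the authors' totals, the stricter filter or the robust fit, and 0 to 4 with a library left out. Names without reads at 11 hpf pass that filter through 24 hpf alone, where they are high, and of the 8 called higher outside miR-430 with it 5 are such names, so its counts support nothing. That filter, the newer form and the denominator without miR-26a-5p were chosen after seeing the data. In other settings too, calls on names without reads at 11 hpf could only be higher, among them miR-724 with RLE, the authors' totals and DESeq2.

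With the replicate number as a block, 0 names passed by all reads and 1, miR-26a-5p, outside miR-430, and 0 and 2 seed families. Not every pair of same-numbered libraries deviated together, with correlations of 0.16, 0.05 and -0.27. With 2 libraries per stage these values cannot decide whether same-numbered libraries were paired, and the labels do not say.

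The miR-430 difference ran from -17.0 to -8.73 points with a library left out and was -0.0213 points of the authors' totals. The difference in detected names ran from -1.81 to 15.4. Where a library was left out, the lone library left in that stage took its spread from the other stages. A name left without reads at both stages by leaving out a library gave no value. At 0 reads, depth allowed up to 0.0405% of reads outside miR-430 in the shallowest of the 4 libraries.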
